A study of Mus musculus with 3 samples.

Results

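The cytoplasmic ribosomal protein genes encode the proteins of the small (40S) and large (60S) ribosomal subunits. They were taken by symbol: Rps or Rpl followed by a digit, together with Rpsa, Rplp0, Rplp1 and Rplp2, without the S6 kinase genes and the symbols marked as pseudogenes, and with at least 100 unique molecular identifiers (UMIs, each counting 1 captured transcript) in the kept cells. This gave 84 of the 31053 features in the count tables, of which 33 belong to the 40S and 50 to the 60S subunit. The remaining one is Rps19bp1, a protein that binds RPS19 in human cells and whose symbol fits the rule without being a ribosomal protein. Rpl39l (7 UMIs) and Rpl10l (0 UMIs) fell below the minimum.

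Tumour-associated macrophages came from 3 mice of the strain FVB/N-Tg(MMTVPyVT)634Mul/J (MMTV-PyMT), in which the mouse mammary tumour virus promoter drives the polyoma virus middle T oncogene in the mammary epithelium. A mammary adenocarcinoma of 750 mm3 was taken from each mouse, digested with collagenase I and DNase I, and macrophages were sorted as cells with CD45, F4/80 and CD11b on their surface and without Ly6G. The 3 libraries, made with a 10x Genomics 3' v3 kit, form a single group with the mouse as replicate. All animals carried the transgene and none was treated. The comparisons below set classes of macrophages against each other within each mouse.

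Ribosomal proteins are needed in nearly equal numbers, and most of their messenger RNAs begin with a run of pyrimidines (the 5' terminal oligopyrimidine, or TOP, tract) through which mTORC1 controls their translation. The P stalk (Rplp0, Rplp1 and Rplp2) recruits translation factors to the 60S subunit, and Rpl5 and Rpl11 form a particle with 5S ribosomal RNA that binds Mdm2, the ubiquitin ligase of p53, when it is left unassembled. A few members have paralogues, among them Rps27l beside Rps27, Rpl22l1 beside Rpl22, Rpl36al beside Rpl36a and Rpl7l1 beside Rpl7. Transcription of RPS27L is raised by p53 in human cells. In macrophages, as in other cells, ribosome supply sets the capacity for making proteins.

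The windows below show the promoter starts of 6 members whose share of ribosomal protein UMIs differed between macrophage classes: both genes of the Rps27 pair, Rpl22l1, Rps9, Rps26 and Rpl31. Each runs from 30 bases before to 20 bases from the annotated start on the strand of the gene, from RefSeq on GRCm38.p6, and capitals mark a run of at least 6 letters that are all C or T, lying between 10 bases before and 20 after the start.
Rps27l, chr9:66946056-66946105, plus strand: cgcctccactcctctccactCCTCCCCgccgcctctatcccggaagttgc
Rps27, chr3:90213629-90213678, minus strand: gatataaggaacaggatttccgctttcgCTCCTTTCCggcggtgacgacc
Rpl22l1, chr3:28805478-28805527, plus strand: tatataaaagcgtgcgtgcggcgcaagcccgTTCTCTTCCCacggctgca
Rps9, chr7:3704011-3704060, plus strand: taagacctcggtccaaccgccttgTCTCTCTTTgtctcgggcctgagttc
Rps26, chr10:128626487-128626536, minus strand: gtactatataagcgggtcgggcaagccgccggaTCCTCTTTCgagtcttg
Rpl31, chr1:39367821-39367870, plus strand: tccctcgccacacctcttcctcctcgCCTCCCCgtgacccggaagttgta
Such a run was found in 38 of the 64 members with an entry in the RefSeq promoter table (59.4%), against 8678 of the 27025 genes in that table (32.1%). Rps27l has a further annotated start at position 66946413 of the same chromosome, whose window holds no such run. A run of these letters is a description of the sequence and not a measured TOP tract.

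The libraries of mice 1, 2 and 3 held 12454677, 41097369 and 86178419 UMIs in 1074, 2470 and 7429 barcodes. Cells with at least 500 detected genes and at most 15% mitochondrial UMIs were kept, leaving 663, 2108 and 6978 of them. Their median depths were 15014, 13600 and 9318.5 UMIs. Mice 2 and 3 shared 8 barcodes, and the other pairs of libraries shared 0. The cells were clustered without the ribosomal protein genes, so the classes were not built on the genes described here. Of 16 clusters, 15 had all 10 macrophage lineage markers in at least 10% of their cells. The other cluster, of 55 cells, was tumour epithelium-like and was left out of the comparisons. Clusters 5, 7 and 14 got no name under the marker rule and keep their numbers. Inflammatory-like cluster 0 and the MHC-II high-like class were named from 11 and 8 raised markers with 0 of these among their 10 leading genes. LYVE-1 resident-like cluster 10 was named from 5 raised markers (Folr2, Cbr2, F13a1, Gas6 and Ccl8), without Lyve1, Cd163 or Timd4, while clusters 1 and 9 had 12 of the list raised. Cluster 14 (92 cells) and LYVE-1 resident-like cluster 10 (388 cells) had medians of 1676.5 and 2000 UMIs per cell, far below the other classes, and results are given with and without them.

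Ribosomal protein genes gave 15.2%, 12.8% and 13.2% of the UMIs of the macrophage classes in mice 1, 2 and 3 (13.7% ± 1.30, SD, n = 3). The 40S genes accounted for 6.29% ± 0.569 and the 60S genes for 7.42% ± 0.736. By comparison, the 78 genes of the mitochondrial ribosome gave 0.385% ± 0.0301. Cells differed widely: averaged over the mice, the 5th percentile of cells stood at 4.81%, the median at 13.05% and the 95th percentile at 20.3%.

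The members were abundant and present in most cells. As 3' counting takes 1 UMI per transcript whatever its length, levels are given in CPM, the UMIs of a gene scaled to a common library total, and can be compared between genes, apart from differences in capture and mapping. Of the 84 genes, 64 exceeded 1000 CPM and 5 were below 100 CPM, with a median of 1678 CPM and quartiles of 1025 and 2068 CPM. A UMI was found in over 90% of the cells for 74 members. The 5 highest members held 13.7% and the 10 highest 23.7% of the ribosomal protein UMIs.

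Rps29, a small zinc-binding protein of the 40S subunit, was highest with 6393, 4275 and 6628 CPM in mice 1, 2 and 3. Rpl41, the smallest protein of the 60S subunit, followed with 4555, 3511 and 2991 CPM. Rpl23 (2961 ± 272 CPM) and Rps24 (2934 ± 290) were also among the 5 highest (SD, n = 3), with ranges over the mice that overlapped each other. At the low end, Rpl29 had 127, 50.7 and 75.1 CPM and Rps27rt, a gene nearly identical to Rps27, had 60.4, 47.8 and 140 CPM. Rpl7l1 (64.1 ± 5.81 CPM), Rps19bp1 (28.7 ± 4.67) and Rpl3l (0.886 ± 0.306), a paralogue of Rpl3 known from muscle, were lower still, the last being too rare to be tested. Low values of genes with near-identical copies are uncertain, since reads that match several places are not counted.

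**Figure D1:**
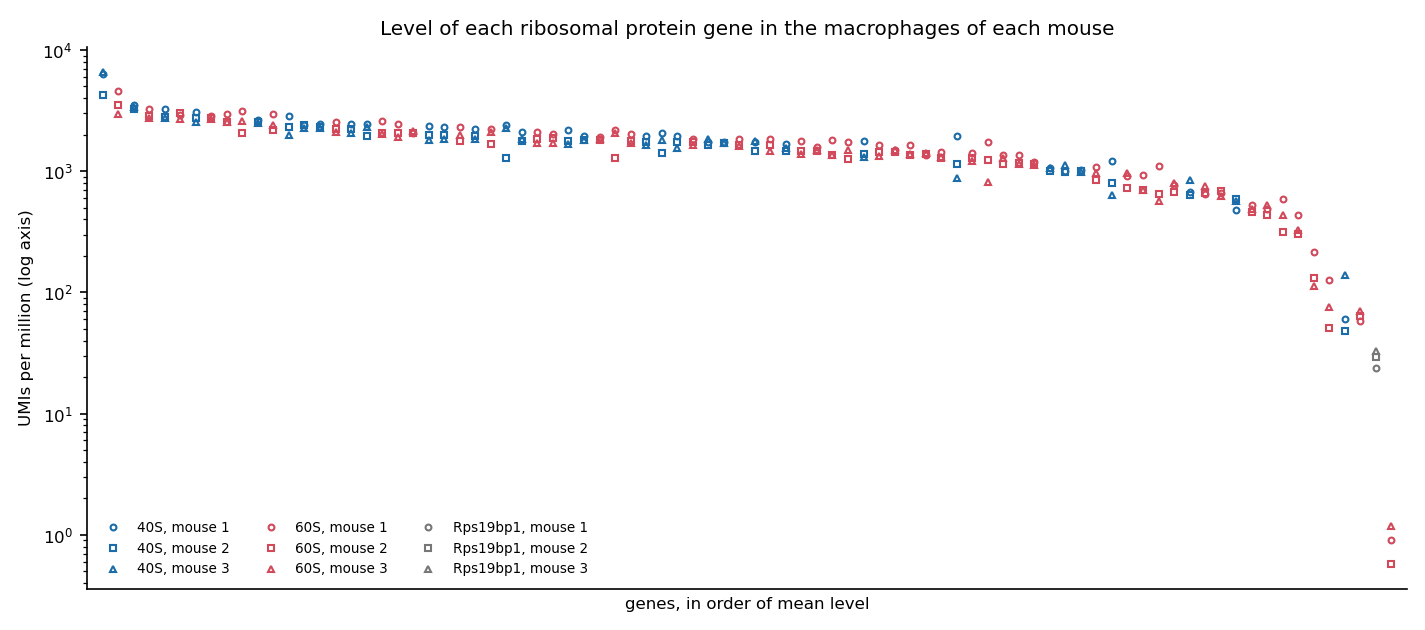
Level of each of the 84 genes in CPM (log axis) by rank, with a marker for each mouse and colours for 40S genes, 60S genes and Rps19bp1. The 64 genes above 1000 CPM form a shallow slope, and the 5 genes below 100 CPM fall away from it.

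Among the members with defined roles, the P stalk genes Rplp1, Rplp0 and Rplp2 had 2867 ± 152, 2131 ± 275 and 1511 ± 62.1 CPM. Rpl11 had 1547 ± 215 CPM, above its partner Rpl5 with 749 ± 66.3 CPM. Rps27a, which is made as a fusion with ubiquitin, had 2795 ± 273 CPM. Of ribosomal components that lie outside the symbol rule, Fau, the precursor of a 40S protein, had 3546 ± 301 CPM, and Rack1, a scaffold on the 40S head, had 1194 ± 37.4 CPM (SD, n = 3 for all).

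The share of UMIs from these genes differed between macrophage classes. It was highest in LYVE-1 resident-like cluster 10, with 21.6%, 16.4% and 15.3% in mice 1, 2 and 3 (17.8% ± 3.38). The hypoxia-like class had 16.7%, 15.001% and 14.6%, the cycling G2M-like class 16.8%, 13.7% and 13.98%, inflammatory-like cluster 0 had 17.0%, 12.7% and 14.4%, and the heat-shock and immediate-early-like class 16.3%, 13.7% and 14.01%. These 4 classes had means between 14.7% and 15.4%. The hypoxia-like class was above the heat-shock and immediate-early-like class in each mouse, and differences between these classes were not tested.

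The middle of the order was narrow. The MHC-II high-like class, cluster 7, the Retnla Ear2-like class, the interferon-like class, LYVE-1 resident-like cluster 1, cluster 5 and the lipid-associated-like class had means from 14.3% down to 12.7%, and the ranges of neighbours in this order overlapped. Inflammatory-like cluster 2 had 11.9% ± 1.18, and LYVE-1 resident-like cluster 9 had 11.5%, 9.59% and 9.81% (10.3% ± 1.03). Cluster 9 was below cluster 2 in each mouse. Cluster 14 stood far apart with 3.37%, 2.22% and 4.84% (3.48% ± 1.31). The 3 clusters named as LYVE-1 resident-like therefore lay at the top, in the middle and near the bottom of the order. The name of cluster 10, at the top, did not hold in every clustering. With separate UMIs for classes and counts, its closest cluster was tumour epithelium-like, with an overlap in cells (Jaccard index) of 0.34. Without doublets its closest cluster had no name (0.82). It stayed LYVE-1 resident-like with coarser and finer clustering and a wider mitochondrial limit (0.81, 0.90 and 0.67). The part of tumour epithelium-like cells in its share was not tested. Other classes were also unstable. The closest cluster of the hypoxia-like class was lipid-associated-like with coarser clustering (0.21) and separate UMIs (0.27). Inflammatory-like cluster 0 was closest to an unnamed cluster with coarser clustering and a wider mitochondrial limit (0.75 and 0.75). Inflammatory-like cluster 2 reached at most 0.40 and the lipid-associated-like class at most 0.48. Cluster 14 reached 0.82 without doublets and at most 0.27 otherwise.

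**Figure D2:**
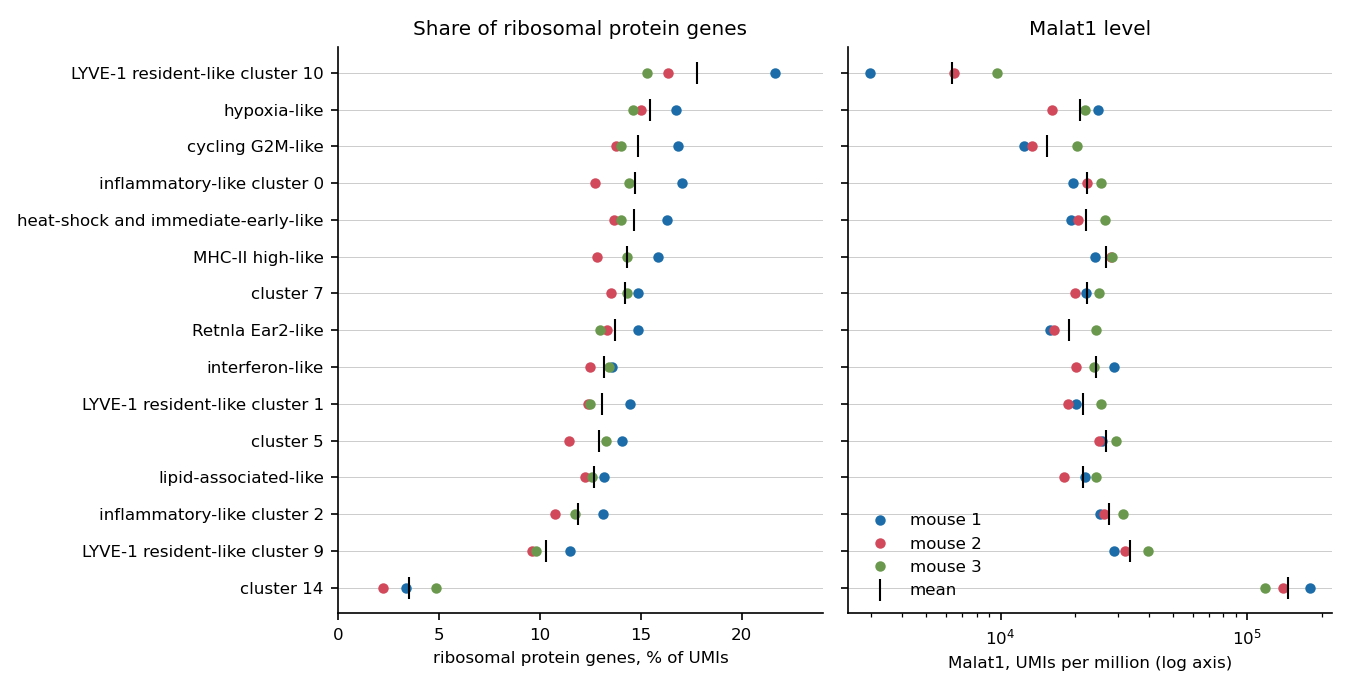
Share of all UMIs from ribosomal protein genes in percent (left) and Malat1 in CPM (right, log axis) for the 15 macrophage classes in order of their mean share, with a point per mouse and a bar at the mean. LYVE-1 resident-like cluster 10 stands highest and cluster 14 lowest in ribosomal protein share, and cluster 14 is highest in Malat1.

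Other properties of the cells moved with this share. Malat1, a nuclear long non-coding RNA, had 145647 CPM on average in cluster 14, 33456 CPM in LYVE-1 resident-like cluster 9 and 6369 CPM in LYVE-1 resident-like cluster 10. Over the 15 classes the rank correlation of the share with Malat1 was -0.78, -0.77 and -0.65 in mice 1, 2 and 3, and without clusters 9, 10 and 14 it was -0.59, -0.55 and -0.31. With the median UMIs per cell it was 0.21, 0.27 and 0.03. The points share their libraries, and both measures are shares of the same UMIs, so these values are descriptions. Within the 42 combinations of class and mouse with enough cells, the correlation across cells of the share with Malat1 had a median of -0.475 and was negative in 41. With UMIs per cell it had a median of 0.27 and was negative in 2, and with the mitochondrial share it had a median of -0.10 and was negative in 30. The part of Malat1, UMIs per cell and the mitochondrial share in the differences of share was not tested.

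The order of the mice was nearly the same in every class. Mouse 1 had the highest share in 14 of the 15 classes, and mouse 2 the lowest in 12. Markers of other cells varied between the macrophage classes. The 10 tumour epithelium markers summed to between 39.0 CPM in inflammatory-like cluster 0 and 119 CPM in LYVE-1 resident-like cluster 9, with 0 of them at 0 in all classes but the MHC-II high-like class (2) and cluster 14 (7). In LYVE-1 resident-like cluster 10, which had the highest share, these markers summed to 58.7, 106 and 146 CPM in mice 1, 2 and 3. The tumour epithelium-like cells themselves had a share of 22.9%. The rank correlation of these markers with the share over the macrophage classes was -0.36. The T cell list summed to 506 CPM in cluster 14, where 9 of its 10 markers were at 0, and to 242 CPM in inflammatory-like cluster 0, where 6 were at 0. In the hypoxia-like class it reached 270 CPM with 0 at 0. The 10 monocyte markers ran from 26.1 CPM in cluster 14 to 866 CPM in the Retnla Ear2-like class, with 0 at 0 there, and the 10 dendritic cell markers from 20.6 CPM in the lipid-associated-like class to 214 CPM in the Retnla Ear2-like class, with 2 at 0. The 6 erythroid markers summed to 3.76, 245 and 2.74 CPM in mice 1, 2 and 3 in LYVE-1 resident-like cluster 1. Their part in the differences was not tested.

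Each class was then compared with the mean of the other classes, gene by gene, on UMI counts summed per mouse and class (edgeR's quasi-likelihood test with the mouse as a block and TMM normalization, Benjamini-Hochberg adjustment over 8494 genes, threshold 0.05). The 12 classes with at least 20 cells in every mouse were used, and 83 members could be tested. As a shift of so large a part of the UMIs also moves the reference level, the members' median log2 fold change is given relative to that of all genes tested. The CPM printed for the other classes are unweighted means over these classes without TMM, while the fold change is taken on the log scale after TMM, so the signs can differ for small changes. A call for nearly every member in a class counts that shift many times over and is not a set of independent results.

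In inflammatory-like cluster 0, 82 of the 83 members were higher, where 15.6% of all genes were. Rps19bp1 alone was not called. The members' median was 0.44 above that of all genes (0.51 against 0.07). Rplp0 had 2878, 2103 and 2178 CPM in the cluster, against 2234, 1866 and 1764 CPM in the other classes (log2 fold change 0.61, SE 0.08, adjusted p = 3.63e-08). Each mouse had the higher value in the cluster. Rpl11 rose by 0.58 (SE 0.08, adjusted p = 1.22e-07), with 2082, 1506 and 1536 CPM against 1684, 1391 and 1287 CPM, and its partner Rpl5 by 0.56 (adjusted p = 3.91e-07). Rps27a rose by 0.57 (adjusted p = 2.1e-06) and Rplp1, among the smallest changes, by 0.38 (adjusted p = 0.00257).

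In the hypoxia-like class 79 members were higher, where 20.9% of all genes were, and their median was 0.30 above that of all genes. Rpl5 had 915, 887 and 928 CPM, against 706, 649 and 778 CPM in the other classes, so the class was higher in each mouse (log2 fold change 0.50, SE 0.08, adjusted p = 6.01e-06). Rps29 did not pass the test. It had 5639, 3949 and 6438 CPM, against 6064, 4109 and 6453 CPM, lower in each mouse on this scale, while its fold change after TMM was slightly positive (log2 0.10, adjusted p = 0.55). Besides Rps29, the genes not called were Rps27, Rps27rt and Rps9. The count was 61, 34 and 68 without mouse 1, 2 and 3.

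LYVE-1 resident-like cluster 10 had 80 members higher, where 10.8% of all genes were, with a median 0.56 above that of all genes. Rplp0 had 3229, 2665 and 2199 CPM in the cluster, against 2202, 1815 and 1762 CPM in the other classes (log2 fold change 0.69, SE 0.08, adjusted p = 6.02e-09). In the heat-shock and immediate-early-like class 72 members were higher, where 13.9% of all genes were, and their median was 0.23 above that of all genes. Rpl5 rose by 0.41 and Rpl11 by 0.41 there (adjusted p = 0.000261 and 0.000251), while Rps27l fell by 0.41 (adjusted p = 0.00634), the only member called lower. This class depended on single mice, with 46, 1 and 67 members called higher without mouse 1, 2 and 3.

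The cycling G2M-like class had 60 members higher, where 29.2% of all genes were, and a median only 0.10 above that of all genes. Without clusters 10 and 14 among the other classes, 14 members were higher there and 10 lower, where 18.9% and 17.3% of all genes were. Leaving out mouse 1, 2 or 3 gave 14, 7 and 32 members higher in that class. In cluster 7, 23 members were higher where 31.1% of all genes were, with 6 or fewer when any mouse was left out. With plain library totals 64 were higher there, where 39.0% of all genes were, and the median of the members (0.25) was below that of all genes (0.30). In cluster 5, 13 members were higher where 13.6% of all genes were, with 6, 4 and 27 without mouse 1, 2 and 3 and 4 with plain library totals. In the lipid-associated-like class 4 members were higher where 9.90% of all genes were, with 3 or fewer when any mouse was left out. The counts in these 3 classes under TMM were near or below the background. The members' medians relative to all genes were 0.02 in inflammatory-like cluster 2 and -0.05 in LYVE-1 resident-like cluster 1.

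Members were lower in a further pair of classes. In LYVE-1 resident-like cluster 9, 57 were lower, where 10.7% of all genes were, and their median was 0.36 below that of all genes (-0.31 against 0.05). Rplp0 had 1762, 1241 and 1280 CPM in the cluster, against 2336, 1944 and 1845 CPM in the other classes (log2 fold change -0.43, SE 0.09, adjusted p = 0.000123). Rpl11 had 1173, 1023 and 928 CPM, against 1767, 1435 and 1342 CPM (log2 fold change -0.41, adjusted p = 0.00027). Rplp1 (-0.19, adjusted p = 0.178) and Rps29 (0.13, adjusted p = 0.398) did not pass the test. Leaving out mouse 1, 2 or 3 gave 56, 17 and 19 members lower in this cluster. In cluster 14, 81 members were lower, where 19.7% of all genes were. Their median was -2.47, against -0.74 for all genes, and Rpl11 (-2.99), Rplp0 (-2.58) and Rps29 (-2.48) fell together.

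Clusters 10 and 14 belong to the other classes in each of these contrasts. Without them, 82 members were higher in inflammatory-like cluster 0 (15.6% of all genes), 67 in the hypoxia-like class (11.8%) and 57 in the heat-shock and immediate-early-like class (10.4%), and 80 were lower in LYVE-1 resident-like cluster 9 (16.4%). The members' medians relative to all genes were then 0.39, 0.23, 0.16 and -0.41. Other classes changed: 15 members were lower in cluster 7 (16.5% of all genes), 21 in the lipid-associated-like class (2.44%) and 32 in LYVE-1 resident-like cluster 1 (5.52%). In cluster 7 the members' median was -0.07 there, against 0.18 with all classes, and in the lipid-associated-like class it was -0.13, against 0.07. Relative to all genes it was below 0 in both under either choice. With plain library totals in place of TMM, the median of all genes in inflammatory-like cluster 0 was -0.13, a shift of over 0.1, and 69 members were called higher. With plain totals and without clusters 10 and 14, 56 were called higher there. Their median was then 0.38 above that of all genes (0.16 against -0.22).

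Genes that work with the ribosome did not all follow its proteins. The lists for them came from textbook functions. Of 77 mitochondrial ribosomal protein genes tested, 71 were higher in the cycling G2M-like class and 59 in the hypoxia-like class, with medians of 0.53 and 0.51. In inflammatory-like cluster 0, where nearly all cytoplasmic members were higher, 4 were higher and 1 lower (median 0.09). In LYVE-1 resident-like cluster 9, 1 was higher and 12 lower. Over the 12 fitted classes, 239 pairs of such a gene and a class were called higher and 67 lower. The rest of these calls lay in classes not named here. Of 76 ribosome biogenesis genes tested, 43 were higher in the cycling G2M-like class, 42 in the hypoxia-like class and 29 in inflammatory-like cluster 0, and 16 were lower in LYVE-1 resident-like cluster 9. Of 37 translation initiation genes, 24 were higher in the hypoxia-like class, 24 in inflammatory-like cluster 0 and 23 in the cycling G2M-like class. Of 10 elongation genes, 8 were higher in the hypoxia-like class, 7 in the cycling G2M-like class and 5 in inflammatory-like cluster 0, while 4 were lower in LYVE-1 resident-like cluster 9. The share of all genes called higher was 15.6% in inflammatory-like cluster 0, 20.9% in the hypoxia-like class and 29.2% in the cycling G2M-like class, and the share called lower in LYVE-1 resident-like cluster 9 was 10.7%, near that of the mitochondrial ribosomal protein genes. Of the components outside the symbol rule, Rack1 rose by 0.51 and Fau by 0.45 in inflammatory-like cluster 0 (adjusted p = 1.22e-06 and 0.000499).

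**Figure D3:**
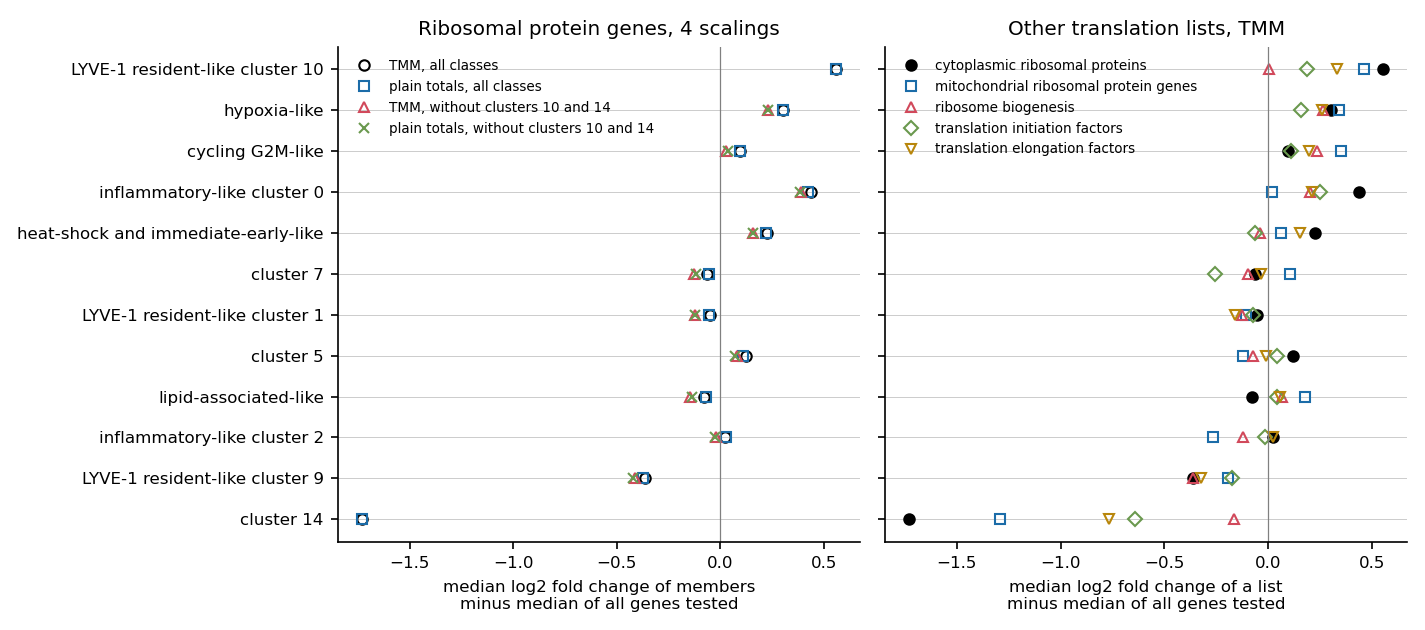
Left, the members' median log2 fold change (class minus the mean of the other classes) relative to the median of all genes tested, in the 12 classes under 4 scalings. Right, the same under TMM for the members and for the lists of mitochondrial ribosomal proteins, ribosome biogenesis, initiation and elongation. The members stand 0.44 above all genes in inflammatory-like cluster 0, 0.36 below in LYVE-1 resident-like cluster 9 and 1.73 below in cluster 14.

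Single genes of these lists had larger changes, and 3 are given here. Eif4e, the cap-binding initiation factor, fell in cluster 7, with 57.7, 69.1 and 66.7 CPM in the 3 mice (log2 fold change -1.84, SE 0.14, adjusted p = 7.36e-14), and in the heat-shock and immediate-early-like class, with 63.7, 91.0 and 91.4 CPM (-1.28, adjusted p = 2.27e-09). It rose in LYVE-1 resident-like cluster 9, with 283, 410 and 326 CPM (0.83, adjusted p = 5.89e-08). In all 3 classes Eif4e was also called with each mouse left out. Eif4e was about as high in cluster 5 (271, 324 and 352 CPM) as in LYVE-1 resident-like cluster 9. It was highest in cluster 14 (989, 1190 and 527 CPM). Cluster 14, with few UMIs per cell, is part of the mean that the other classes were set against for Eif4e and Mdm2. Mdm2 rose in cluster 5, with 121, 205 and 145 CPM (1.42, adjusted p = 7.34e-11), and in LYVE-1 resident-like cluster 9 (1.32, adjusted p = 4.61e-10), and fell in cluster 7, with 20.8, 27.6 and 27.4 CPM (-1.57, adjusted p = 1.77e-08). In the heat-shock and immediate-early-like class Mdm2 fell by 0.65 (adjusted p = 0.00552), and its adjusted p was 0.181 without mouse 3. Sesn1, an inhibitor of mTORC1, was measured without clusters 10 and 14, since it was at 0 in cluster 14. It rose by 2.07 in cluster 7 (adjusted p = 3.79e-16) and by 1.12 in the heat-shock and immediate-early-like class (adjusted p = 1.88e-06).

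To find members that moved apart from the others, the same fit was run with the summed ribosomal protein UMIs as library size, so that a fold change is relative to the members as a whole. Of 996 pairs of member and class, 60 were called (6.02%), 32 higher and 28 lower, in 34 members. The other 49 members were never called in this fit. Outside cluster 14 there were 53 calls, all with the same sign in 3 of 3 mice. Their median size was 0.25 on the log2 scale, and 3 exceeded 0.5. Across classes without cluster 14, the range of a member's mean share of the ribosomal protein UMIs had a median of 0.25 on the log2 scale and was below 0.5 for 76 members. Of the 60, 27, 23 and 23 were also called without mouse 1, 2 and 3, and 10 were called in all of these fits. The genes of these pairs that are reported here are described first.

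**Figure D4:**
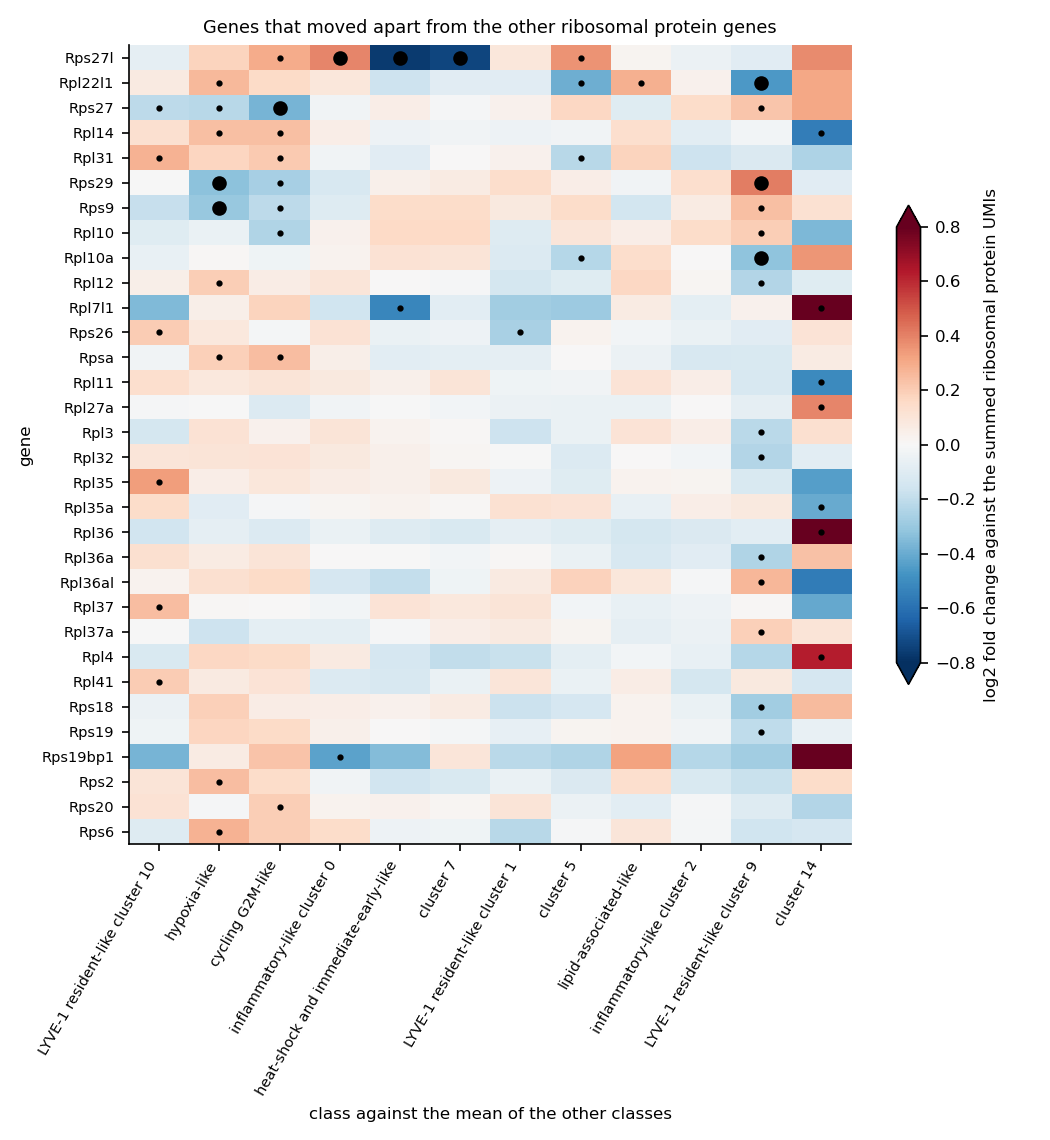
Log2 fold change relative to the summed ribosomal protein UMIs for called members (rows) in 12 classes (columns), with the colour limited at 0.8 in either direction. Small dots mark called pairs and large dots the pairs that were also called with each mouse left out, 3 of which belong to Rps27l.

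Among members of at least 50 CPM, and leaving out cluster 14, Rps27l had the widest range of share over the fitted classes (1.06 on the log2 scale). In the heat-shock and immediate-early-like class it made up 0.178%, 0.211% and 0.274% of the ribosomal protein UMIs in mice 1, 2 and 3, against 0.297%, 0.414% and 0.431% in the other classes (log2 fold change -0.77, SE 0.10, adjusted p = 7.56e-07). In cluster 7 it made up 0.197%, 0.193% and 0.287%, against 0.296%, 0.416% and 0.430% (-0.73, SE 0.10, adjusted p = 4.03e-07). Shares printed for the other classes, here and below, are unweighted means over the other fitted classes of each mouse. In both classes all 3 values lay below these means. Single classes overlapped with them, as Rps27l made up 0.250% in LYVE-1 resident-like cluster 10 and 0.16% in cluster 14 in mouse 1. Against the summed member UMIs, 3 members were called lower in the heat-shock and immediate-early-like class and 1 in cluster 7, where 23.8% and 13.5% of all genes were.

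In inflammatory-like cluster 0, Rps27l was higher relative to the other members, with 0.387%, 0.476% and 0.516%, against 0.278%, 0.390% and 0.409% in the other classes (0.39, SE 0.09, adjusted p = 0.000767). The values were higher in each mouse, while the ranges of the groups overlapped. It was the only member called higher there, where 1.65% of all genes were. Rps27l was also called higher in cluster 5 (0.36, adjusted p = 0.00526), the only member in that direction, where 6.65% of all genes were, and in the cycling G2M-like class (0.30, adjusted p = 0.0126). Without mouse 1, the adjusted p was 0.0728 in cluster 5 and 0.127 in the cycling G2M-like class, and without mouse 2 it was 0.101 and 0.0916.

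Classes with few cells in mouse 1 were tested in a separate fit with a minimum of 3 cells. In the Retnla Ear2-like class (9 cells in mouse 1) Rps27l made up 0.593%, 0.700% and 0.586% of the ribosomal protein UMIs, the highest of all classes (0.83, adjusted p = 7.05e-10), which is also the class with the highest sums of monocyte and dendritic cell markers; their part in this result was not tested. In the MHC-II high-like class (16 cells in mouse 1) it made up 0.191%, 0.288% and 0.206% (-0.78, adjusted p = 4.76e-05). Mean shares over all classes therefore ran from 0.221% in the heat-shock and immediate-early-like class to 0.627% in the Retnla Ear2-like class. Of the Rps27 and Rps27l UMIs together, Rps27l held 14.02% ± 2.42 in the heat-shock and immediate-early-like class and 29.7% ± 3.87 in the cycling G2M-like class (SD, n = 3).

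The Retnla Ear2-like class had 5 members higher and 5 lower relative to the other members, where 8.31% and 14.9% of all genes were. Rpl36al (0.31) and Rpl13 (0.22) followed Rps27l, and Rpl12 (-0.32), Rpl22l1 (-0.32) and Rpl5 (-0.25) were among the lower ones. Under TMM, 23 members were higher in that class, where 18.4% of all genes were. The MHC-II high-like class had 4 members lower, where 5.16% of all genes were, among them Rps27l, Rps19bp1 (-1.52) and Rpl7l1 (-0.87).

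**Figure D5:**
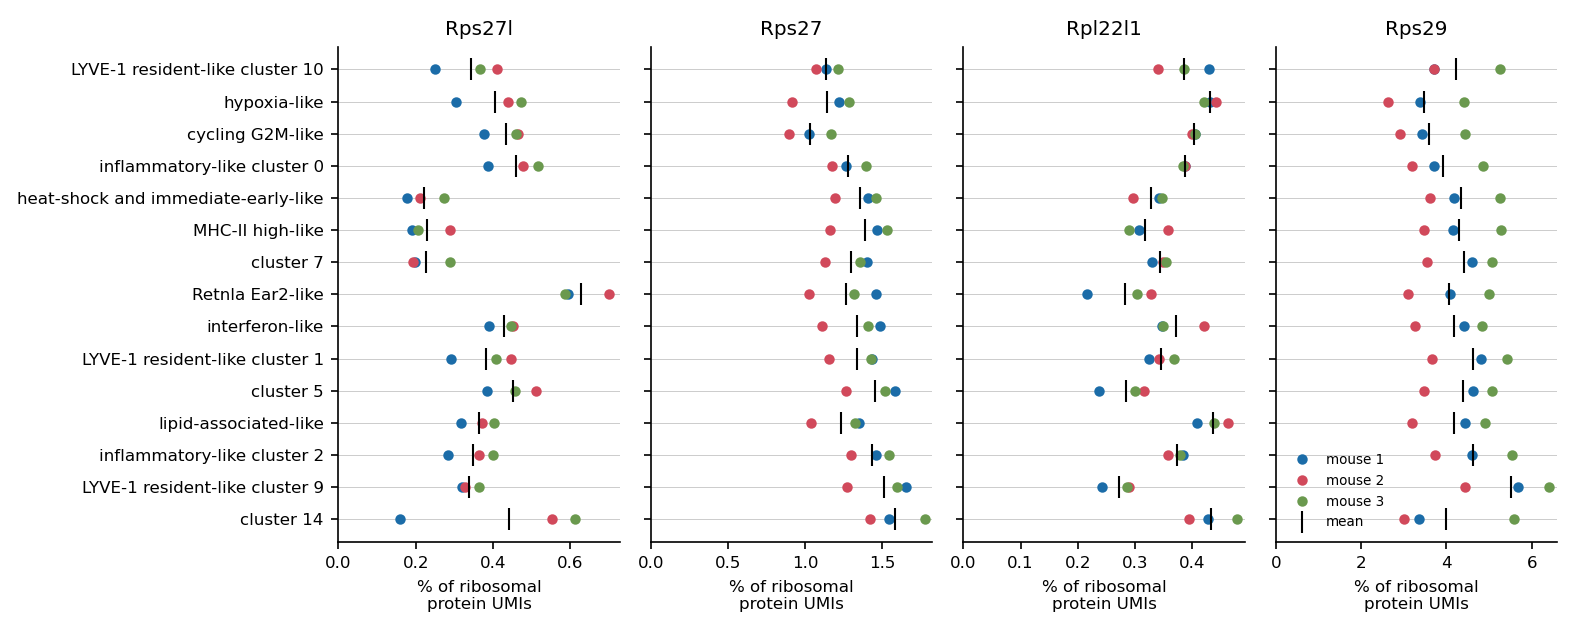
Share of the ribosomal protein UMIs in percent held by Rps27l, Rps27, Rpl22l1 and Rps29 in each class, with a point per mouse and a bar at the mean. Rps27l is lowest in the heat-shock and immediate-early-like class (0.221%) and highest in the Retnla Ear2-like class (0.627%).

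Rpl22l1, the paralogue of the 60S protein Rpl22, was lower in LYVE-1 resident-like cluster 9. It made up 0.242%, 0.289% and 0.287% of the ribosomal protein UMIs, against 0.373%, 0.371% and 0.387% in the other classes, with no overlap (log2 fold change -0.46, SE 0.09, adjusted p = 5.52e-05). It was called lower in cluster 5 (-0.39, adjusted p = 0.00102, and 0.0946 without mouse 1) and higher in the hypoxia-like class (0.26, adjusted p = 0.0125, and 0.129 without mouse 2) and the lipid-associated-like class (0.28, adjusted p = 0.0459, and 0.463 without mouse 2). In the lipid-associated-like class it was the only member higher, where 2.51% of all genes were. Of the Rpl22 and Rpl22l1 UMIs together, Rpl22l1 held 27.7% ± 2.94 in LYVE-1 resident-like cluster 9 and 38.6% ± 2.48 in the lipid-associated-like class.

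The other paralogue pairs moved less or rested on few UMIs. Of the Rpl36a and Rpl36al UMIs, Rpl36al held 37.3% ± 2.28 in LYVE-1 resident-like cluster 9 and 27.8% ± 2.37 in the heat-shock and immediate-early-like class. In cluster 9 Rpl36al was higher (0.27, adjusted p = 0.0158, and 0.110 without mouse 2) and Rpl36a lower (-0.24, adjusted p = 0.0125). The Rpl36a pair shares sequence, so reads of each may be lost or misplaced. Rpl7l1, paralogue of Rpl7, fell in the heat-shock and immediate-early-like class (-0.52, adjusted p = 0.0047), with an adjusted p of 0.139 without mouse 2. Rpl7l1 held 5.03% ± 0.837 of the UMIs of its pair over all cells, and Rps27rt held 4.45% ± 2.39 of those of Rps27 and Rps27rt.

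Rps29, Rps9 and Rps27, all of the 40S subunit, were each called lower in the hypoxia-like and cycling G2M-like classes and higher in LYVE-1 resident-like cluster 9. Rps29 made up 5.67%, 4.44% and 6.40% of the ribosomal protein UMIs in LYVE-1 resident-like cluster 9, against 4.08%, 3.33% and 5.07% in the other classes (0.41, SE 0.08, adjusted p = 2.21e-05). Each mouse had the higher value in the cluster, although the mice differed as much as the classes did. In the hypoxia-like class Rps29 made up 3.37%, 2.63% and 4.41%, against 4.28%, 3.50% and 5.25% (-0.33, SE 0.08, adjusted p = 0.00206). Rps9 made up 1.51%, 1.49% and 1.31% in the hypoxia-like class, against 1.94%, 1.80% and 1.58% in the other classes (-0.30, SE 0.08, adjusted p = 0.00421). Rps27 made up 1.02%, 0.898% and 1.17% in the cycling G2M-like class, against 1.41%, 1.18% and 1.44% (-0.37, SE 0.08, adjusted p = 0.000195).

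The remaining calls of these genes were weaker. Rps29 in the cycling G2M-like class (-0.26, adjusted p = 0.011) had an adjusted p of 0.066 without mouse 3. Rps27 in LYVE-1 resident-like cluster 9 (0.22, adjusted p = 0.0126) had 0.0823 without mouse 1, and in the hypoxia-like class (-0.22, adjusted p = 0.0225) it had 0.244 without mouse 2. Rps9 in LYVE-1 resident-like cluster 9 (0.24, adjusted p = 0.0109) had 0.0721 without mouse 3, and in the cycling G2M-like class (-0.21, adjusted p = 0.0399) it had 0.183 without mouse 1.

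LYVE-1 resident-like cluster 9 had the most calls, with 7 members higher and 8 lower, where 36.2% and 4.04% of all genes were. Rpl10a, a part of the L1 stalk of the 60S subunit, made up 0.866%, 1.00% and 0.846%, against means of 1.14%, 1.18% and 1.07% in the other classes (-0.32, adjusted p = 0.000558). The cluster's values did not overlap with these means. Rps18 (-0.28) and Rpl12 (-0.24) were also lower and Rpl10 (0.20) higher. Of the genes named for this cluster, Rpl22l1, Rpl10a and Rps29 were called with each mouse left out, and the others lost their call without at least 1 mouse.

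The hypoxia-like class had 7 members higher and 3 lower, where 2.23% and 28.4% of all genes were. Rps6, the ribosomal target of the S6 kinases, rose by 0.28 there (adjusted p = 0.00788, and 0.0958 without mouse 2), followed by Rps2 (0.25) and Rpl14 (0.24). The cycling G2M-like class had 6 higher and 4 lower, where 12.5% and 17.6% of all genes were. Rpsa, also known as the laminin receptor, rose by 0.25 (adjusted p = 0.0067, and 0.0857 without mouse 3). Rpl14 and Rpsa were called higher in both classes.

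LYVE-1 resident-like cluster 10 had 5 members higher and 1 lower, where 0.436% and 31.7% of all genes were. They were led by Rpl35 (0.33, adjusted p = 0.00173, and 0.0602 without mouse 2), with Rpl31 (0.28), Rpl37 (0.24), Rpl41 (0.21) and Rps26 (0.20), and Rps27 was lower (-0.21). In LYVE-1 resident-like cluster 1 the single call was Rps26 (-0.26, adjusted p = 0.046), lower where 0.271% of all genes were. Its adjusted p there was 0.0701, 0.438 and 0.338 without mouse 1, 2 and 3. The Rps26 call in LYVE-1 resident-like cluster 10 was likewise lost when any mouse was left out. Cluster 5 had 3 members lower, where 13.6% of all genes were: Rpl22l1, Rpl10a (-0.23) and Rpl31 (-0.22). In inflammatory-like cluster 0 the single member lower was Rps19bp1 (-0.43, adjusted p = 0.00632, and 0.38 without mouse 1), where 51.4% of all genes were. Apart from Rps27l and Rps19bp1, no member was called apart from the total in that cluster, although 82 were higher under TMM.

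Cluster 14 had 4 members higher and 3 lower relative to the others, where 38.5% and 0.165% of all genes were. Rpl36 made up 4.48%, 2.60% and 0.850% of its ribosomal protein UMIs, against 1.16%, 1.06% and 1.03% in the other classes. The log2 fold change was 1.13 and ran from 0.42 to 1.69 as single mice were left out, so it rests on mice 1 and 2. Rpl7l1 (1.44), Rpl4 (0.63) and Rpl27a (0.39) were the other higher members, and Rpl14 (-0.55), Rpl11 (-0.51) and Rpl35a (-0.40) the lower ones. Rpl7l1 ran from 0.58 to 2.52 and Rpl4 from 0.09 to 1.03 in the same way. Rpl7l1 made up 0.16%, 0.394% and 0.0266% of the ribosomal protein UMIs of cluster 14 in mice 1, 2 and 3, so its change rests on very few UMIs. This cluster had 92 cells and a median of 8.35% mitochondrial UMIs.

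The members never called apart from the total included the P stalk genes Rplp0, Rplp1 and Rplp2, as well as Rpl5, Rps27a, Rpl22 and Rpl7. The 40S genes held between 45.3% and 47.0% of the ribosomal protein UMIs in the macrophage classes, with the highest value in LYVE-1 resident-like cluster 9. Coding length was compared over 77 members, without the paralogues and Rps19bp1. The rank correlation of length with the fold change was 0.42 in the hypoxia-like class and 0.44 in inflammatory-like cluster 0. It was -0.33 in LYVE-1 resident-like cluster 9 and -0.54 in LYVE-1 resident-like cluster 1. In the remaining fitted classes it ran from -0.34 in LYVE-1 resident-like cluster 10 to 0.25 in the cycling G2M-like class. These genes are not independent, and the part of length in the calls was not tested.

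Some members differed between mice more than between classes. Relative to the summed ribosomal protein UMIs, Rpl10 and Rps2 were lower in mouse 3 than in the other mice in 12 of 12 classes, with median log2 differences of -0.77 and -0.74. Rps28 (-0.70), Rpl38 (-0.60), Rpl27 (-0.56) and Rps29 (-0.44) were lower in mouse 2 in 12 of 12 classes. Rps27rt was higher in mouse 3 in 11 of 12 (1.41). Each mouse is a single library, so animal and library cannot be told apart. The mouse was a term in every fit, and the class differences above were taken within mice.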

How the data were processed

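Sorted macrophages of 3 tumours, 1 per mouse, were measured by droplet sequencing. The deposited matrices hold UMI counts that were not normalized, made by the authors with Cell Ranger 3.0.2 on build mm10, per the submitters' processing notes. Reads that match several places are not counted by that tool, which can lower genes with processed pseudogenes. The members and lists were chosen with earlier results of these data known.

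Barcodes with under 500 genes or over 15% mitochondrial UMIs were dropped. Clusters were built in scanpy 1.11.5 (Python 3.11.15; 2000 variable genes, 30 principal components, 15 neighbours, Leiden resolution 1.0) without the genes described. A cluster was named where at least 5 markers of a list, or all of a shorter one, were found in 10% of its cells and exceeded the rest by a log2 difference of at least 0.5. A name was withheld where another list held some of the 10 leading genes, and at least as many. Clusters with few UMIs per cell also needed a marker among their leading genes. Scrublet called 26 cells (0.267%), which does not count as a working caller, and none was removed in the main fits. The alternative without doublets removed the 6, 42 and 415 cells with the highest Scrublet scores in mice 1, 2 and 3. These numbers came from an assumed rate of 0.8% per 1000 barcodes, not from the calls.

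Counts of each class were summed within each mouse and tested with edgeR 4.0.16 in R 4.3.3 (filterByExpr, robust quasi-likelihood test, 2-sided, class and mouse as terms, contrast of a class with the unweighted mean of the others), with TMM or the summed member UMIs as scale. Samples of different classes are paired because they come from the same mouse. The fits were tested on simulated data. The genes named are the 5 highest and 5 lowest members by CPM, up to 4 called members per class and direction against the member total, the 10 with the widest range of share over classes, and members with set roles; some of them are not reported here. Eif4e, Mdm2 and Sesn1 were named after their values were seen. Alternatives covered filters, clustering, doublets, scaling, DESeq2 1.42.0, the mouse block, separate UMIs for classes and counts, and each mouse left out. Nothing shows more than 1 animal per library. The mouse block takes out differences that all classes of a mouse share. The p-values therefore measure how the class differences vary between these 3 mice, with the spread estimated over all fitted classes together.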

Additional observations from a re-analysis of the deposited data

Results flagged for a closer look

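Barcodes removed for more than 15% mitochondrial UMIs, 387, 298 and 307 in mice 1, 2 and 3, still held ribosomal protein UMIs. Their share was 4.21%, 3.39% and 5.15% of all UMIs, a signal outside the cells compared above. With mitochondrial genes left out of the total it was 6.03%, 4.59% and 6.82%, and Malat1 had 91217, 105941 and 129088 CPM on that basis.

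Symbols marked as pseudogenes, which the rule leaves out, also had UMIs in the kept cells, together 0.0131% of all UMIs. Rpl10-ps3 had 7606, Rpl36a-ps1 4560, Rpl9-ps6 2809, Rps12-ps3 2330, Rpl27-ps3 2208, Rpl7a-ps5 435, Rpl13a-ps1 131 and Rpl9-ps1 10 UMIs. Whether these reads come from the pseudogenes or from their parent genes was not tested.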

How the results depend on the processing

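No call against the member total changed sign under the alternatives in which it could be compared. Where the cells were clustered again, calls in classes without a matching cluster were not compared. This left 19 of the 60 calls at Leiden resolution 0.5 and 52 at 1.5. With separate UMIs for classes and counts 34 were left, without doublets 44, and with up to 25% mitochondrial UMIs 48. Under TMM, without clusters 10 and 14, the members' median was -0.07 in cluster 7 and -0.13 in the lipid-associated-like class, against 0.18 and 0.07 with them. The 413 pairs of member and class called higher under TMM became 186 with up to 25% mitochondrial UMIs, 189 without the replicate block, 230 without clusters 10 and 14 and 267 there with plain totals, 156 and 208 at Leiden resolutions 0.5 and 1.5, 155 with separate UMIs for classes and counts, and 199 to 363 with a mouse left out. The 140 called lower became 88 without doublets, 93 with up to 25% mitochondrial UMIs, 92 without the block, and 99 to 139 with a mouse left out. Higher calls were 74.7% of all TMM calls, and 58.7% without clusters 10 and 14. Against the member total, 32 higher and 28 lower calls became 121 and 108 with DESeq2, 15 and 15 without a filter on low counts, 5 and 7 without the block, 56 and 53 without clusters 10 and 14, and 8 to 23 and 15 to 19 with a mouse left out. For mitochondrial ribosomal protein genes, 239 higher calls became 151 with up to 25% mitochondrial UMIs, 128 without the block, 69 at resolution 0.5, 104 with separate UMIs, 126 without clusters 10 and 14 and 79 to 216 with a mouse left out, and 67 lower calls became 162 with plain totals without clusters 10 and 14, and 27 to 46 with a mouse left out. The gap in share between the highest and lowest class, 14.3 percentage points, was 6.70 and 7.54 at resolutions 0.5 and 1.5, 6.003 with separate UMIs, 5.15 without clusters 10 and 14 and 12.3 to 16.2 with a mouse left out. The causes were not tested. Of the 60 calls against the member total, DESeq2 called 60, and 12 held without the replicate block, among them Rps27l in the heat-shock and immediate-early-like class and cluster 7 (adjusted p = 0.0163 and 0.00796) but not Rps27l in inflammatory-like cluster 0 (0.0872). The overall share of 13.7% was 12.97% to 14.2% with a mouse left out. Clusters 10 and 14, with the fewest UMIs per cell, set the limits of depth.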
